A study of Mus musculus with 3 samples.

Results

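The cells described here were 217 alveolar macrophages with a high share of transcripts from Hmox1, Slc7a11 and Srxn1, of 10844 macrophages and 15809 cell barcodes in all. Macrophages were barcodes with at least 5000 unique molecular identifiers (UMIs, each a counted transcript molecule), at least 300 genes, at most 10% of UMIs from mitochondrial genes and at least 3 of the 8 alveolar macrophage genes Marco, Siglecf, Krt79, Ear2, Atp6v0d2, Bhlhe41, Chil3 and Pparg. The 3 libraries were ranked together by the share of UMIs from Hmox1, Slc7a11 and Srxn1, and the top 2% were kept and are called members below. The 10627 other macrophages are the comparison. The ranking used measured values, so the levels of those 3 genes in members are a description and support nothing.

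The study exposed wild-type C57BL/6J mice aged 12 weeks for 3 hours to filtered air, ozone at 1 ppm or ozone at 1.5 ppm. Ozone is an oxidant gas that reacts with the lining of the airways and airspaces. Immune cells were washed from the right lung lobes 22 to 24 hours after exposure and profiled with a droplet assay that reads the 3′ end of transcripts. Cells of 3 to 4 mice were pooled into 1 library a group, so no animal can be told from another and no test between groups can be made. Intervals below are exact 95% intervals (Clopper-Pearson for shares of cells, conditional for ratios) and cover counting error only. Levels are given in CPM: a gene's UMIs summed over the cells of a group, per 1000000 UMIs of all genes in those cells.

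Hmox1 encodes haem oxygenase 1, which breaks haem into biliverdin, iron and carbon monoxide. Slc7a11 encodes the transport chain of the cystine importer that feeds glutathione synthesis, and Srxn1 encodes sulfiredoxin, which repairs over-oxidised peroxiredoxins. All 3 are known targets of Nrf2 (gene Nfe2l2), a transcription factor that the adaptor Keap1 holds down until oxidants or electrophiles modify it. Nrf2 binds antioxidant response elements together with small Maf proteins, and Bach1 opposes it at Hmox1 until haem is plentiful. Alveolar macrophages live in the airspace, clear surfactant and inhaled particles, and take up haem and iron from dying red cells.

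Promoters of 5 genes that were high in members are shown because they differ in which short stress-response motifs they hold. They are the 250 bases before each gene start from RefSeq on build GRCm38.p6, 5′ to 3′ on the gene's strand. The deposited counts are on GRCm39, so only gene names join the sequences to the counts. Capitals mark matches on either strand to the antioxidant response element core TGACNNNGC, the AP-1 letters TGAGTCA or TGACTCA, or the amino acid response core TGATGNAA. The Slc7a11 window is chr3:50443614-50443863 (minus strand), Srxn1 at chr2:152105274-152105523 (plus strand), Gclm at chr3:122245307-122245556 (plus strand), Prdx1 at chr4:116685349-116685598 (plus strand) and Mt2 at chr8:94172368-94172617 (plus strand).
Slc7a11: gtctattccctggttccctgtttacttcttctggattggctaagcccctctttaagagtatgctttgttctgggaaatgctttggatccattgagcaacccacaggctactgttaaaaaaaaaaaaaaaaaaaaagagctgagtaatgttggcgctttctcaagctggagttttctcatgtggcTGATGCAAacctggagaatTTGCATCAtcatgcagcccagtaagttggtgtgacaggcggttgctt
Srxn1: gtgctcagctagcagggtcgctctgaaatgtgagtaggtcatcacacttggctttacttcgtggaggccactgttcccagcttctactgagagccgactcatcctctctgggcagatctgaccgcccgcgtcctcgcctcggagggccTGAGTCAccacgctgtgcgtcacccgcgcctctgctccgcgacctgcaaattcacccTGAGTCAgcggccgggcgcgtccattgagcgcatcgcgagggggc
Gclm: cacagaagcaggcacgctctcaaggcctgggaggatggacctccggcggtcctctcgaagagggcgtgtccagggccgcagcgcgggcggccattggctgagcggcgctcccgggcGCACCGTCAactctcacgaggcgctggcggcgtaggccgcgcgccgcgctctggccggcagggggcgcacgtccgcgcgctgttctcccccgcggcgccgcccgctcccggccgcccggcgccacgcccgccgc
Prdx1: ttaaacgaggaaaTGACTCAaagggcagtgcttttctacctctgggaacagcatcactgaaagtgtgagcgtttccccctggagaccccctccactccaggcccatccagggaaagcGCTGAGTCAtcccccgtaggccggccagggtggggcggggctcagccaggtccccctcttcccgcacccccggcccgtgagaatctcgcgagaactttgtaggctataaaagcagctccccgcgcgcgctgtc
Mt2: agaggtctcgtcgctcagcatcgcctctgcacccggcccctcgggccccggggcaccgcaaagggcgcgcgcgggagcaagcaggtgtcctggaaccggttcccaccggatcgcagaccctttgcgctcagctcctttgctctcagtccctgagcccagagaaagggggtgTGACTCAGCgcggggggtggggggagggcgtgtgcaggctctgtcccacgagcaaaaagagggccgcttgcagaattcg

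The Slc7a11 window held 2 amino acid response cores, 1 on each strand, and no match to the other motifs. The Srxn1 window held 2 AP-1 matches and the Gclm window 1 antioxidant response element core. The Prdx1 window held 1 antioxidant response element core and 2 AP-1 matches, of which 1 overlapped the core, and the single Mt2 match fitted both motifs. The Txnrd1 gene had 3 start windows in the table and a core in 1 of them, and Hmox1 is named only. Among the 32851 promoters of the table, 10.2% held an antioxidant response element core, 4.46% an AP-1 match and 3.45% an amino acid response core. Of the 151 promoters matched to 119 of the genes that were 2-fold higher in members in every library, 17.9% held the core, against 12.8% of 125 promoters of the lower genes and 11.9% of 8647 promoters of all genes considered. A match is letters only and says nothing of binding.

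The 3 ranking genes were high in members by construction. Hmox1 had 6213, 4183 and 4657 CPM in members against 124, 107 and 119.6 CPM in the other macrophages in the filtered air, 1 ppm and 1.5 ppm libraries. Slc7a11 had 1319, 603 and 1523 CPM in members against 16.4, 14.3 and 18.7 CPM in the other macrophages, and Srxn1 had 273, 164 and 343 CPM in members against 17.3, 19.4 and 21.0 CPM in the other macrophages, in the same order of libraries. Hmox1 supplied most of the ranking, with 77.7% of the UMIs of the 3 genes over all members. In 203 members most of the ranking UMIs were Hmox1 and in 13 they were Slc7a11. All 3 genes were detected in 177 members, while 24 members had no Slc7a11 UMI, 25 had no Srxn1 UMI and 1 had no Hmox1 UMI.

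Clec4e, which the ranking did not use, was detected in 63.7, 65.4 and 64.1% of members in the filtered air, 1 ppm and 1.5 ppm libraries, against 11.8, 16.7 and 20.1% of the other macrophages, which were shallower. With every barcode thinned to 5000 UMIs, it was detected in 39.8, 42.3 and 47.4% of members and 4.63, 6.17 and 7.65% of the other macrophages. Per cell, 53 of 113, 13 of 26 and 37 of 78 members lay above the 95th percentile of the others for Clec4e. Hspa1a was detected in 33.6, 11.5 and 34.6% of members, against 8.10, 5.21 and 17.8% of the other macrophages, and its sums rested on few barcodes, as described with the heat shock genes. Of the label genes that the ranking did not use, Clec4e was thus found after thinning in under 50% of members of each library. Hspa1a had no UMI in most members, though without thinning a larger share of members than of the others carried it. All 5 genes were detected in 45 of 217 members.

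Members were a larger share of macrophages in filtered air than at either ozone dose. They were 113 of 3287 macrophages in filtered air, which is 3.44% (2.84 to 4.12), 26 of 2117 at 1 ppm, 1.23% (0.804 to 1.79), and 78 of 5440 at 1.5 ppm, 1.43% (1.13 to 1.79). The intervals of the ozone libraries overlapped each other and neither reached that of the air library. The air library supplied 52.1% of members but 30.3% of macrophages. With 1 pool a group, dose cannot be told apart from any other difference between pools. With the top 2% taken in each library separately the share is fixed by the rule and carries no information. The ranking by Slc7a11 and Srxn1 without Hmox1 gave 2.80% in filtered air and 1.84% at 1.5 ppm, a smaller gap.

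**Figure D1:**
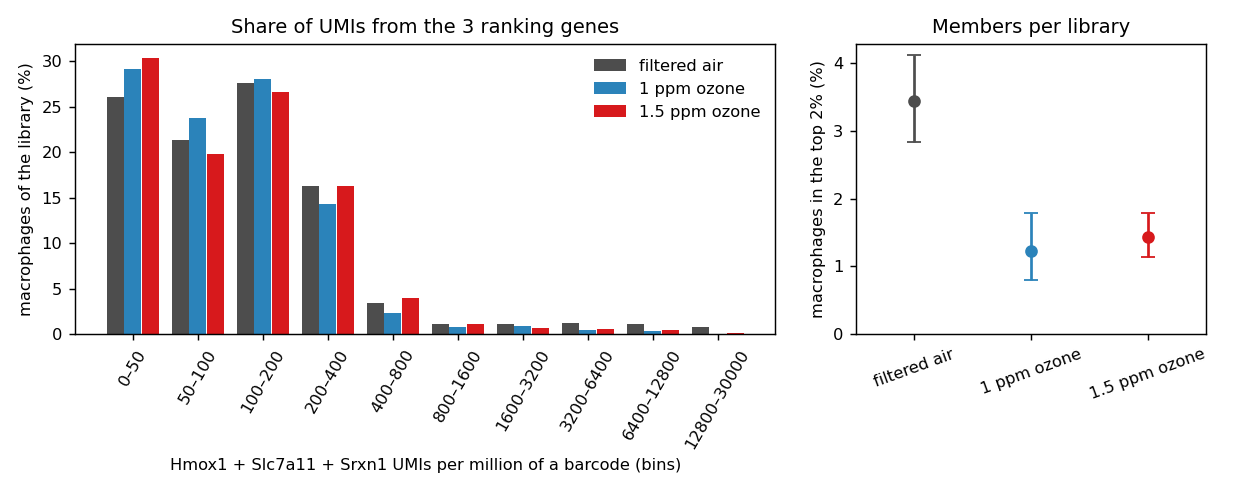
Left, percent of each library's macrophages by binned CPM of Hmox1, Slc7a11 and Srxn1 together; right, percent of each library's macrophages that were members, with exact binomial 95% intervals. Most macrophages lie under 400 CPM in each library, the tail has no gap, and the air point of 3.44% lies above those of 1.23% and 1.43%.

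The group had no natural edge. The 3 lowest members had 2419, 2416 and 2404 CPM of the ranking genes and the 3 barcodes just outside had 2378, 2373 and 2357 CPM. The median member had 6868, 4596 and 5886 CPM of them in the filtered air, 1 ppm and 1.5 ppm libraries, against 102, 91.1 and 98.0 CPM for the median of the other macrophages. Within members, Hmox1 per cell spanned a lowest of 1926, a median of 5445 and a highest of 19173 CPM in filtered air, a lowest of 0, a median of 3725 and a highest of 9846 CPM at 1 ppm and a lowest of 378, a median of 3934 and a highest of 19015 CPM at 1.5 ppm. Slc7a11 spanned a lowest of 0, a median of 501 and a highest of 9278 CPM in filtered air, a lowest of 0, a median of 519 and a highest of 3044 CPM at 1 ppm and a lowest of 0, a median of 988 and a highest of 12085 CPM at 1.5 ppm. Both genes reached 0 or near it in some members, since the ranking used their sum with Srxn1.

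Members were somewhat deeper than the rest. Their median was 17841, 19272 and 14786 UMIs in the filtered air, 1 ppm and 1.5 ppm libraries, against 13849, 16025 and 13549 UMIs for the other macrophages. Summed UMIs were 2185519, 583840 and 1272688 in members, so levels at 1 ppm are the least precise. The mitochondrial share had a median of 3.65, 3.99 and 2.34% in members against 4.12, 3.97 and 2.29% in the others. Libraries shared 4 to 10 barcodes in pairs, none of them a member. Doublets remain, since Scrublet marked 2, 14 and 0 of the other macrophages and no member, too few for a working call. In the 11, 3 and 48 barcodes with T cell genes, which should lack Hmox1, there were 0, 0 and 3 Hmox1 UMIs, 1, 0 and 9 Slc7a11 UMIs and 9, 0 and 8 Mt1 UMIs, at median depths of 3875, 6119 and 3981 UMIs. Slc7a11 there came to 40.4 CPM at 1.5 ppm, above its level in the other macrophages, but 4.17% of the 48 barcodes held all of it. Chil3, 1 of the 8 macrophage genes, was found in 100, 100 and 83.3% of those barcodes, at 925, 631 and 399 CPM. With other macrophages matched on UMIs, 131 genes were 2-fold higher in members in every library and 108 lower. With at most 5% mitochondrial UMIs these counts were 142 and 135, against 151 and 123 as reported below. Beyond such alternatives, the part of depth, mitochondrial share and doublets in the results below was not tested.

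Across 8319 genes with a mean of at least 10 CPM over the 6 sums, 151 (1.82%) were at least 2-fold higher in members in every library and 123 (1.48%) were at least 2-fold lower. By library, 339, 307 and 317 genes (4.08%, 3.69% and 3.81%) were 2-fold higher in the filtered air, 1 ppm and 1.5 ppm libraries, and 554, 557 and 413 (6.66%, 6.7% and 4.96%) were 2-fold lower. Members were defined by these same cells' genes, so the counts describe them and test nothing. Before each log2 ratio was taken, every summed count was raised by 1 UMI, and 133 of the 151 genes had at least 10 member UMIs in every library, against 73 of the 123. Because 1 UMI weighs more in the smaller sum, 3 of the 151 genes were counted as higher with 0 member UMIs in a library. The CPM minimum was a mean over members and others, so a gene near 0 in the others could pass it through members alone. With a minimum of 50 CPM, 66 genes were higher and 56 lower in every library. In the air and 1.5 ppm libraries alone 239 genes were higher and 277 lower. The median over all genes was -0.13, -0.08 and -0.11 log2, the base against which list medians below are to be read.

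**Figure D2:**
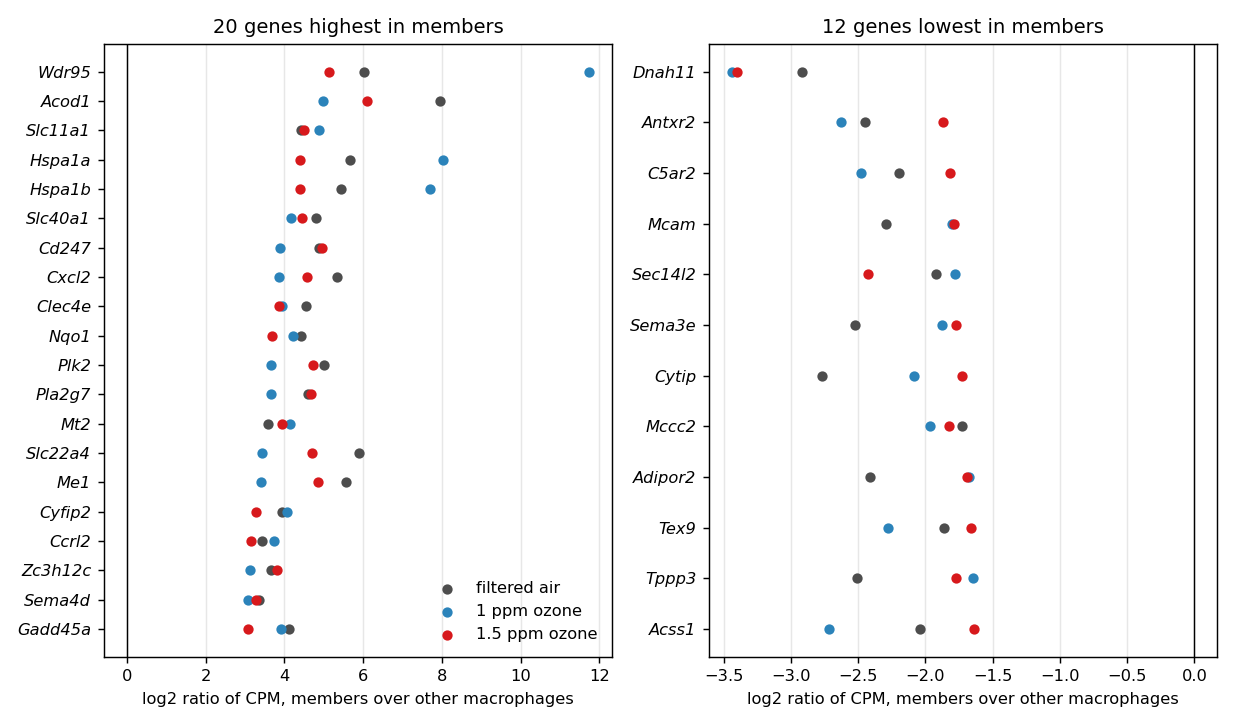
Log2 ratio of summed CPM, members over other macrophages, in each library for the 20 genes highest and the 12 lowest by their smallest absolute ratio over libraries. The points of the highest genes lie above 3 and those of the lowest genes under -1.6. Each Wdr95 point rests on 1 barcode of its library, and the 1 ppm points of Hspa1a and Hspa1b rest on 1 barcode.

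Genes of glutathione synthesis had the highest list median in filtered air and at 1.5 ppm, though not at 1 ppm. All 7 measured members of the list lay above 0 in every library, with medians of 2.24, 0.96 and 2.43 log2 in the filtered air, 1 ppm and 1.5 ppm libraries, and 3 were 2-fold higher in each. Gclm, the modifier subunit of the enzyme that limits glutathione synthesis, had 795, 359.7 and 709.5 CPM in members against 70.1, 62.8 and 86.2 CPM in the other macrophages. These are ratios of 11.3 (10.7 to 12.0), 5.73 (4.95 to 6.60) and 8.23 (7.68 to 8.82). Gclc, its catalytic subunit, had ratios of 4.71, 2.53 and 5.39. Gss, glutathione synthetase, had 68.2, 29.1 and 44.8 CPM in members against 8.15, 9.94 and 7.76 CPM in the other macrophages. Its level in the others was under 10 CPM, so it passed the CPM minimum through members. Slc3a2, the partner chain of Slc7a11, differed by 1.70, 0.91 and 1.50 log2. The 1 ppm ratio was the smallest of the 3 for each of Gclm, Gclc and Gss. Glutathione transferases and peroxidases stood apart from the synthesis genes, with medians of 0.48, -0.12 and 0.14 log2 over 8 genes and none 2-fold higher in every library. Gstm1, a transferase, had log2 ratios of 1.89, 1.00 and 1.84, while Gpx1, a glutathione peroxidase, was lower at -0.64, -0.30 and -0.48.

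Peroxide removal was led by Prdx1 and Txnrd1. Prdx1, a peroxiredoxin and a substrate of sulfiredoxin, had 8079, 3542 and 6664 CPM in members against 1125, 1215 and 1456 CPM in the other macrophages in the filtered air, 1 ppm and 1.5 ppm libraries, ratios of 7.18 (7.06 to 7.31), 2.92 (2.79 to 3.05) and 4.58 (4.48 to 4.68). Txnrd1, thioredoxin reductase, had 936, 522 and 1324 CPM in members against 121, 124 and 185 CPM in the other macrophages. Catalase (Cat), which splits hydrogen peroxide, had log2 ratios of 2.33, 1.22 and 2.33, and Sod2, the mitochondrial superoxide dismutase, 1.71, 1.30 and 1.39. Txnip, which binds and inhibits thioredoxin, was the 1 gene of the 16 that was 2-fold lower in every library, at -1.36, -1.14 and -1.01 log2. The list's medians were 0.79, 0.51 and 0.65 log2, with 4 of 16 genes 2-fold higher in every library.

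Enzymes that supply NADPH or act on quinones were higher for 4 of 12 measured genes in every library, with list medians of 0.99, 0.45 and 0.71 log2. Nqo1, a quinone reductase and a common readout of Nrf2, had 38.4, 20.6 and 28.3 CPM in members against 1.80, 1.16 and 2.26 CPM in the other macrophages in the filtered air, 1 ppm and 1.5 ppm libraries. Me1, malic enzyme, had 61.8, 8.56 and 53.4 CPM in members against 1.30, 0.945 and 1.88 CPM in the other macrophages, with 5 UMIs behind its 1 ppm value. Nqo1 and Me1 were under 10 CPM in the others and passed the CPM minimum through members, so the filter favoured their entry into the count of 4. At 1 ppm, the log2 ratio without the highest barcode was 2.64 for Me1, against 3.40 with it, and 3.57 for Nqo1, against 4.23 with it. Abcc1, an exporter of glutathione conjugates, had log2 ratios of 3.05, 1.45 and 3.01, and Pgd, of the pentose phosphate pathway, 1.72, 1.06 and 1.38. Among regulators of Nrf2, Sqstm1 had 1282, 707 and 1064 CPM in members against 178, 167 and 133 CPM in the other macrophages. It encodes p62, which carries Keap1 to autophagy. The small Maf genes Mafg and Mafk were 2-fold higher in every library, at 2.08, 1.82 and 2.55 and 1.11, 1.19 and 1.40 log2. Nfe2l2 itself differed less, at 0.41, 0.54 and 0.49 log2, and Keap1 at 0.37, 0.41 and 0.72. Bach1 had 0.69, -0.40 and 0.60 log2, so its 1 ppm value went the other way. The regulator list's medians were 0.55, 0.56 and 0.66 log2 over 10 genes.

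Haem and iron genes that were higher included a haem transporter, a biliverdin reductase, the iron exporter and a ferritin chain. Slc40a1, ferroportin, the iron exporter, had 167, 66.8 and 88.0 CPM in members against 6.01, 3.81 and 4.08 CPM in the other macrophages in the filtered air, 1 ppm and 1.5 ppm libraries. Its ratios were 27.9 (23.8 to 32.6), 17.5 (12.0 to 25.2) and 21.6 (17.3 to 26.7), although 9 of 26 members at 1 ppm carried its UMIs. Slc11a1, which moves iron out of phagosomes, had 36.6, 20.6 and 38.5 CPM in members against 1.70, 0.729 and 1.72 CPM in the other macrophages. Without its highest barcode at 1 ppm its log2 ratio there was 4.23, against 4.88 with it. Blvrb, a biliverdin reductase, had log2 ratios of 3.01, 1.50 and 2.48, and Slc48a1, which moves haem out of lysosomes, 2.08, 1.25 and 1.94. The ferritin chains are among the most abundant transcripts, and Ftl1 had 25815, 19317 and 26784 CPM in members against 7939, 9336 and 11245 CPM in the other macrophages. Fth1, the heavy ferritin chain, was at 1.66, 1.01 and 1.00 log2, and its 1.5 ppm value did not reach 2-fold before rounding. Of 17 measured genes of the list 5 were 2-fold higher in every library and none lower, and the medians were 0.54, 0.68 and 0.67 log2. Slc40a1 and Slc11a1, counted among the 5, were under 10 CPM in the others and passed the CPM minimum through members. Haemoglobin and other red cell genes summed to 7.78, 0 and 3.14 CPM in members, against 18.2, 0.297 and 40.6 CPM in the other macrophages.

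Metallothioneins, small proteins that bind zinc and copper, were higher in members of each library. Mt2 had 2097, 762 and 748 CPM in members against 175, 43.0 and 48.9 CPM in the other macrophages in the filtered air, 1 ppm and 1.5 ppm libraries, ratios of 12.0 (11.6 to 12.5), 17.7 (15.9 to 19.7) and 15.3 (14.2 to 16.4). Mt1, a close copy with which reads could be shared, had 8134, 4025 and 3206 CPM in members against 967, 481 and 428 CPM in the other macrophages. Both were highest in filtered air in members and in the other macrophages alike. Slc30a1, which exports zinc, was higher at 3.20, 2.90 and 3.71 log2, and the importer Slc39a10 was lower at -2.47, -1.14 and -1.30. The zinc list's medians were 1.25, 1.63 and 1.42 log2 over 6 genes. A group of the same size ranked by Mt1 and Mt2 shared 89 cells with the members, 41.0% of each, of which 73 came from filtered air. Such a group holds 2% of all macrophages.

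Hspa1a and Hspa1b UMIs were absent from most members. Hspa1a and Hspa1b, near-identical genes of the inducible chaperone Hsp70 whose reads cannot be separated with certainty, gave 5059 UMIs in all, and 5 cells held 67.0% of them. In 117 of 217 members there was no UMI of either gene, and 29 members had 10 or more. Hspa1a had 380.2, 949 and 402 CPM in members against 7.43, 3.59 and 19.0 CPM in the other macrophages, but at 1 ppm 1 barcode held 99.6% of the members' UMIs, and likewise all of Hspa1b. That barcode also held every 1 ppm member UMI of Wdr95, Egr1 and Mrnip. It had 28393 UMIs, 9.59% of them mitochondrial, and all 8 macrophage genes. Hsph1, Bag3 and Hsp90aa1, which act with Hsp70 and Hsp90, were 2-fold higher in every library, at 1.93, 1.90 and 1.26, 1.40, 1.32 and 1.09 and 1.62, 1.20 and 1.07 log2, with 73.5% of the 1 ppm Hsph1 UMIs in 1 barcode. Without the barcode that held most of its UMIs in each library, Hsp90aa1 had 1.53, 0.76 and 0.98 log2 and Hsph1 1.54, 0.28 and 1.08, so neither was then 2-fold higher in every library. Hspa1a without that barcode had 0.75 log2 at 1 ppm, from 2 UMIs. Over 18 heat shock genes the medians were 0.82, 0.36 and 0.42 log2, and 13 genes lay above 0 in every library. Across members, Mt1 and Hspa1b had Spearman coefficients of -0.24, -0.33 and -0.35 over 113, 26 and 78 cells, a description in which cells share their library and both genes share the cell's depth. A group of the same size ranked by Hspa1a and Hspa1b, 2% of all macrophages, shared 35 cells with the members, 16.1% of each.

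**Figure D3:**
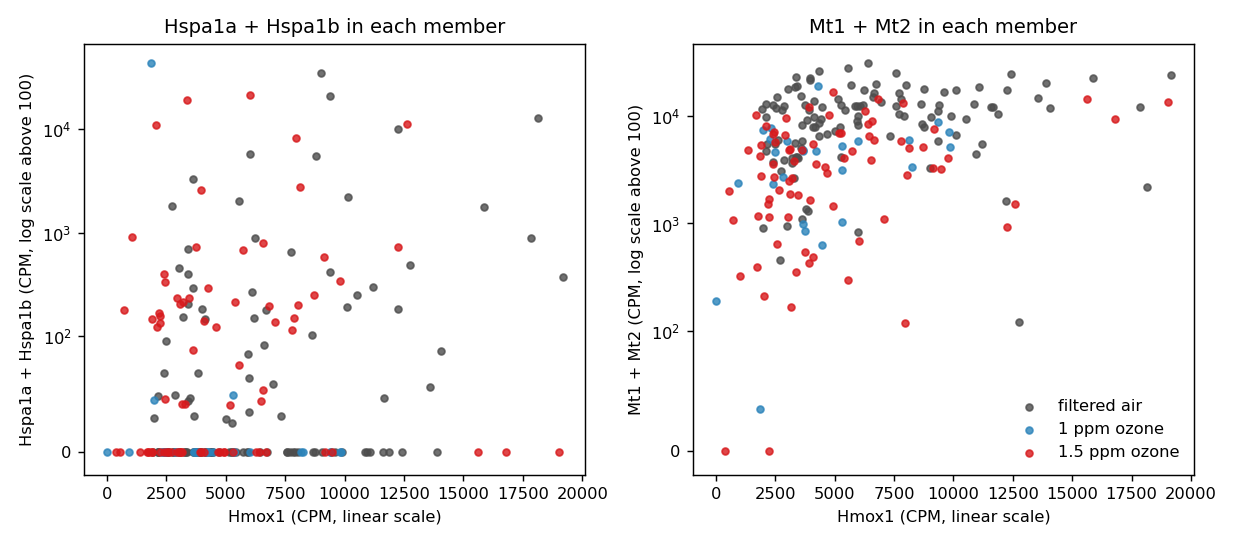
Each point is 1 member, with Hmox1 (x axis, linear) against Hspa1a plus Hspa1b (left) or Mt1 plus Mt2 (right) in CPM of the barcode, linear below 100 and logarithmic above. The left panel has 117 of 217 members at 0 and a few above 10000 CPM, while nearly all members lie above 100 CPM on the right.

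Receptors and inflammatory genes were higher for a part of the lists. Clec4e (Mincle), a C-type lectin receptor for mycobacterial glycolipid and for material of dead cells, had 259.9, 250.1 and 303 CPM in members against 11.2, 16.4 and 20.9 CPM in the other macrophages in the filtered air, 1 ppm and 1.5 ppm libraries, ratios of 23.3 (20.7 to 26.3), 15.3 (12.7 to 18.3) and 14.5 (13.0 to 16.2). Clec4d, its partner lectin, had ratios of 11.8 (10.6 to 13.2), 7.81 (6.23 to 9.70) and 10.2 (9.09 to 11.3). Clec4n (Dectin-2) was at 1.61, 1.51 and 1.17 log2, and Tlr4, the receptor for bacterial lipopolysaccharide, was lower at -1.29, -1.10 and -1.13. These 3 lectins were the only genes of the 18 measured in that list that were 2-fold higher in every library, and its medians were -0.40, 0.33 and -0.18 log2. Of the barcodes with T cell genes, 18.2%, 0% and 2.08% had a Clec4e UMI. In members its rank correlation with Slc7a11 was 0.48, 0.36 and 0.34 over 113, 26 and 78 cells.

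Transcripts of Cxcl2 and Acod1 were found in few members. Cxcl2, a neutrophil-attracting chemokine, had 92.0, 27.4 and 149 CPM in members against 2.28, 1.97 and 6.27 CPM in the other macrophages, from 16, 4 and 15 members. Without its highest barcode Cxcl2 was at 2.60 log2 at 1 ppm, against 3.86 with it. Acod1, which makes itaconate, had 56.3, 6.85 and 47.1 CPM in members against 0.209, 0.243 and 0.686 CPM in the other macrophages, from 15, 2 and 10 members. In filtered air its log2 ratio was 7.27 without the highest barcode, against 7.94 with it. Tnf was at 2.43, 2.29 and 2.36 log2 and Nfkbia, an inhibitor of NF-kB that NF-kB itself induces, at 1.43, 1.38 and 1.68. By count 7 of 14 measured genes of the cytokine list were 2-fold higher in every library, with medians of 1.04, 1.46 and 1.62 log2. At 1 ppm, however, Cxcl10 had no member UMI and Cxcl3 had 1. The summed level of the list was lower in members, at 2248, 3903 and 2382 CPM against 3829, 4009 and 3738 CPM in the other macrophages. The CPM minimum was a mean over members and others, so genes near 0 in the others, such as Cxcl2, passed it through members. With a minimum of 50 CPM the list's median of mean ratios was -0.28 log2. In filtered air 1 barcode held 68.9% of the Cxcl10 UMIs. Of 16 immediate early genes 11, 9 and 12 lay below 0, with medians of -1.20, -0.23 and -0.82 log2. Of all 8319 genes considered, 5119, 4737 and 5021 lay below 0, so the 1 ppm count was near the share over all genes. Fos and Myc were 2-fold lower in every library, at -1.54, -1.12 and -2.29 and -1.82, -1.08 and -1.17, and Ier3 was higher at 1.57, 2.26 and 1.57, with 1.61 at 1 ppm without its highest barcode. Neutrophil markers summed to 42.1, 127 and 199.6 CPM in members, against 58.4, 53.7 and 56.6 CPM in the others. Of the 7 markers 4, 5 and 7 had a UMI in members, S100a9 was at 0 in filtered air, and 1 barcode held all of it at 1 ppm and 99.0% at 1.5 ppm. The part of these barcodes in the cytokine values was not tested.

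Stress genes outside the antioxidant set were mixed. Gdf15, a secreted stress signal and p53 target, had 198, 108 and 205 CPM in members against 16.7, 16.9 and 24.5 CPM in the other macrophages in the filtered air, 1 ppm and 1.5 ppm libraries. Plk2, a kinase that p53 induces, had 46.7, 6.85 and 44.8 CPM in members against 1.44, 0.648 and 1.70 CPM in the other macrophages. The p53 list had medians of 0.42, 0.44 and 0.45 log2 over 10 genes, with these 2 genes 2-fold higher in every library. Plk2, near 0 in the others, passed the CPM minimum through members. Atf3 was the 1 gene of 17 of the integrated stress response that was 2-fold higher in every library, at 2.39, 2.68 and 1.89 log2, and Phgdh, of serine synthesis, was at -0.97, -1.09 and -1.03. That list's medians were -0.14, 0.14 and 0.08. Proteasome subunits lay above the rest as a group. Of 23 genes 22 were above 0 in every library and none was 2-fold higher in every library, with medians of 0.99, 0.51 and 0.72 log2. Gabarapl1, of autophagosome formation, was at 2.02, 1.04 and 2.27 log2, with 0.98 at 1 ppm without its highest barcode, and the lysosome and autophagy list had medians of 0.30, 0.35 and 0.45 over 23 genes.

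**Figure D4:**
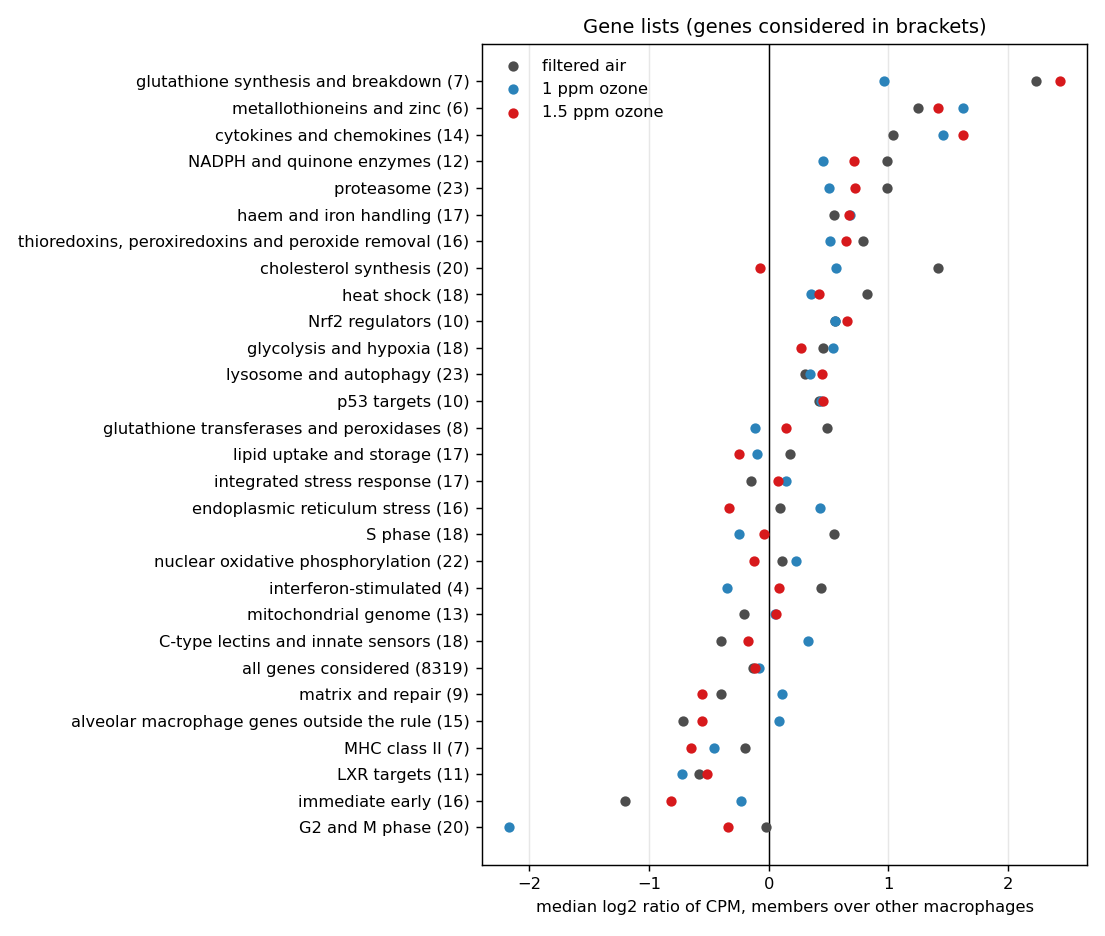
Median log2 ratio of CPM, members over other macrophages, for each gene list in each library, with the number of genes considered in brackets. Lists are ordered by the median of the genes' mean ratio, with glutathione synthesis at the top and G2 and M phase at the bottom. Cholesterol synthesis goes from 1.42 in filtered air to -0.07 at 1.5 ppm.

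Several other genes among the 20 highest have roles in immune or lipid metabolism. Pla2g7, which hydrolyses oxidised phospholipids, had 57.2, 8.56 and 33.8 CPM in members against 2.35, 0.783 and 1.34 CPM in the other macrophages in the filtered air, 1 ppm and 1.5 ppm libraries. Slc22a4, a carrier of ergothioneine, had log2 ratios of 5.90, 3.44 and 4.70, and Ccrl2, a chemerin-binding receptor, 3.42, 3.73 and 3.16. Cyfip2, of the actin-regulating WAVE complex, was at 3.93, 4.06 and 3.27 and Sema4d, a semaphorin, at 3.35, 3.09 and 3.27. Zc3h12c, a regulator of inflammatory transcripts, was at 3.67, 3.12 and 3.81, with 1.59 at 1 ppm from 4 UMIs without its highest barcode, and Gadd45a, a growth arrest gene, at 4.11, 3.92 and 3.08. Cd247, known as the zeta chain of the T cell receptor complex, had 16.9, 10.3 and 33.8 CPM in members against 0.565, 0.783 and 1.10 CPM in the other macrophages, from 12, 4 and 15 members. Markers of T and NK cells summed to 0.458, 0 and 2.36 CPM in members, against 0.168, 1.16 and 0.742 CPM in the others, with Cd3d, Cd3e, Cd3g and Trac at 0 in each library. Wdr95 ranked first but came from 1 barcode in each library, with 5, 53 and 1 UMIs. Without that barcode members had 0 UMIs, and the 1 UMI added to each sum still gave 3.52, 6.23 and 4.23 log2.

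Genes that were lower in members included a hormone receptor, an adhesion regulator and an axonemal dynein. Adipor2, an adiponectin receptor, had 189.9, 269 and 206 CPM in members against 1013, 865 and 668 CPM in the other macrophages in the filtered air, 1 ppm and 1.5 ppm libraries, ratios of 0.187 (0.170 to 0.206), 0.311 (0.264 to 0.364) and 0.308 (0.272 to 0.348). Cytip, which regulates integrin adhesion, had 89.7, 97.6 and 134 CPM in members against 615, 422 and 445 CPM in the other macrophages. Dnah11, an axonemal dynein, had 12.4, 6.85 and 3.14 CPM in members against 96.7, 92.7 and 41.4 CPM in the other macrophages, with 4 UMIs behind each ozone value of members. Without the highest barcode Dnah11 was at -4.62 log2 at 1.5 ppm, against -3.40 with it. Lepr, the leptin receptor, was at -2.70, -1.86 and -1.47 log2. After thinning, Cytip was detected in 29.2, 23.1 and 32.1% of members and 85.7, 78.5 and 79.8% of the others. The rest of the 12 lowest were Antxr2, C5ar2, Mcam, Sec14l2, Sema3e, Mccc2, Tex9, Tppp3 and Acss1, with log2 ratios between -2.72 and -1.64. At 1 ppm, without the highest barcode, Antxr2 was at -3.39 against -2.63 with it, and Tex9 at -3.04 against -2.28 with it. No member was also in the top group of the same size ranked by Lepr, Dnah11 and Rbfox1. Such a group holds 2% of all macrophages, so a small overlap is near that base. Groups ranked by MHC class II, G2 and M phase, C1q and cholesterol synthesis genes shared 1, 1, 5 and 7 members. Those ranked by S phase genes, by Cd36, Colec12 and Gpnmb, and by interferon-stimulated genes shared 11, 12 and 14.

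Genes of alveolar macrophage identity were unevenly lower. The 8 genes of the macrophage rule summed to 7783, 11059 and 5949.6 CPM in members, against 11616, 13279.8 and 9257 CPM in the others, and every member had at least 3 of them by construction. Siglecf, a sialic acid-binding lectin, had 37.5, 66.8 and 25.1 CPM in members against 101, 109 and 76.9 CPM in the other macrophages in the filtered air, 1 ppm and 1.5 ppm libraries. Pparg, a transcription factor of alveolar macrophages, was at -1.48, -0.45 and -1.02 log2. Marco, a scavenger receptor, was higher instead, at 0.68, 0.98 and 0.21, as was the transcription factor Bhlhe41, at 1.19, 0.98 and 0.83. Among 15 identity genes outside the rule 14, 5 and 14 were below 0, with medians of -0.71, 0.09 and -0.56 log2. Over all 8319 genes considered 5119, 4737 and 5021 were below 0. Mrc1, the mannose receptor, was at -1.44, -0.69 and -1.28 and Krt19, a keratin, at -2.21, -0.62 and -1.98.

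Marker lists of other cell types differed in direction between members and the other macrophages. Monocyte markers summed to 92.4, 625 and 240.4 CPM in members, against 299, 521 and 516 CPM in the other macrophages, nearly all of it the matrix gene Fn1, with Ly6c2 at 0 in members. Epithelial markers summed to 56.3, 82.2 and 53.4 CPM in members, against 119, 86.3 and 1039 CPM in the others. Krt8, Krt18 and Cldn18 were at 0 in members. Scgb1a1 led in members of filtered air and 1 ppm, at 30.2 and 46.2 CPM, and Epcam at 1.5 ppm, at 32.2 CPM. In the others at 1.5 ppm Scgb1a1 gave 914 CPM of the sum, while the median cell had 94.4 CPM of the list. C1q or interstitial macrophage markers summed to 6.41, 10.3 and 14.1 CPM in members, against 19.7, 15.1 and 20.1 CPM in the others. Dendritic cell markers summed to 14.2, 18.8 and 11.8 CPM in members, against 35.5, 14.1 and 22.9 CPM in the others, so members were higher at 1 ppm. B cell markers were at 0 in members of each library, against 0.335, 0.324 and 0.326 CPM in the others. Markers of mast cells, basophils or eosinophils summed to 0, 0 and 1.57 CPM in members, against 0.105, 0.0270 and 0.124 CPM in the others. Endothelial or fibroblast markers summed to 3.20, 32.5 and 3.93 CPM in members, against 1.11, 0.756 and 1.10 CPM in the others, and at 1 ppm all of it was Pecam1 in 1 barcode. The part of these transcripts in the results was not tested.

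Genes of lipid uptake and storage lay on both sides of 0, 7 of 17 above and 7 below in every library. Lipa, the lysosomal acid lipase and the 1 gene 2-fold higher in every library, had 1453, 1024 and 1205 CPM in members against 453, 461 and 399.9 CPM in the other macrophages in the filtered air, 1 ppm and 1.5 ppm libraries. The genes 2-fold lower in every library were Dgat2, which makes triglyceride, at -2.07, -1.52 and -1.33, the lipid droplet gene Cidec at -1.70, -1.47 and -1.12 and the fatty acid binding protein Fabp1 at -1.64, -1.32 and -2.08 log2. The lipid list's medians were 0.18, -0.09 and -0.25 log2, and its summed level was 8425, 10016 and 8060.1 CPM in members against 5895, 6182 and 5358 CPM in the other macrophages. Targets of LXR, the sterol-sensing receptor, had medians of -0.58, -0.72 and -0.51 over 11 genes, and Abcg1, a cholesterol exporter, was at -2.14, -0.95 and -1.17. Cholesterol synthesis differed by library: its medians were 1.42, 0.56 and -0.07 log2, with 13 of 20 genes 2-fold higher in filtered air, 2 at 1 ppm and 0 at 1.5 ppm. Sc5d, a sterol desaturase, had 62.7, 29.1 and 24.4 CPM in members against 11.0, 15.0 and 24.5 CPM in the other macrophages. Summed over the list, members had 1354, 927 and 917 CPM and the other macrophages 551, 692 and 1056 CPM, and the difference between libraries was not tested.

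Levels differed band by band down the ranking. The bands pool the 3 libraries and differ in their mix. Filtered air supplied 35 of 54 barcodes of the top 0.5% and 2906 of 9760 of the other 90%. Mt2 was itself highest in filtered air, and the part of library mix in the levels of the bands was not tested. From the top 0.5% of macrophages to the band of 1 to 2%, Mt2 had 1945, 1835 and 1116 CPM, and it had 798, 461 and 195 CPM in the bands of 2 to 3%, 3 to 5% and 5 to 10%, against 56.2 CPM in the other 90%. Gclm had 1133 CPM in the top band and 273 CPM in the band of 2 to 3%, against 70.3 CPM in the other 90%. Adipor2 ran the other way, with 110.1 CPM in the top band and 309.7 CPM at 2 to 3%, against 839.6 CPM in the other 90%. Hspa1a had 550.4, 676 and 339 CPM in the 3 bands of members and 63.6 CPM just below, where few barcodes carry the sums. Across the 2% line itself, Mt2 had 1116 CPM just inside and 798 CPM just outside, and Gclm had 509.8 and 273 CPM.

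**Figure D5:**
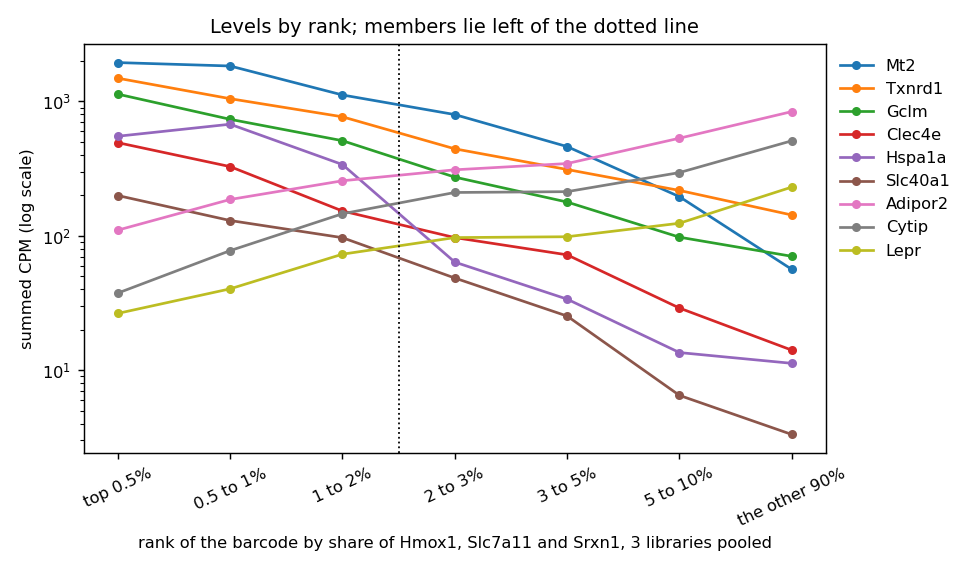
Summed CPM (log axis) of 9 genes in bands of macrophages ranked by the share of Hmox1, Slc7a11 and Srxn1, 3 libraries pooled, with members left of the dotted line. Mt2, Txnrd1, Gclm, Clec4e and Slc40a1 decline in each step while Adipor2, Cytip and Lepr climb towards the other 90%. The bands differ in their mix of libraries.

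Within members, ozone libraries differed from air and from each other, and the counts below are read beside the summed UMIs, which were smallest in members of 1 ppm. Between members of 1 ppm and of filtered air, 324 genes were 2-fold higher (3.89%) and 466 lower (5.6%) in 1 ppm. Between 1.5 ppm and filtered air 143 were higher (1.72%) and 112 lower (1.35%), and between 1.5 ppm and 1 ppm 524 were higher (6.3%) and 446 lower (5.36%). In the other macrophages the same comparisons gave 9 (0.108%) and 15 (0.18%), then 139 (1.67%) and 22 (0.264%), then 145 (1.74%) and 17 (0.204%). Their summed UMIs were 47758787, 37028477 and 88933740 in filtered air, 1 ppm and 1.5 ppm, against 2185519, 583840 and 1272688 in members. Counting error is thus larger in members, and the sizes of the 2 sets of counts cannot be compared. The 26 members of 1 ppm enter both of the larger counts, and these comparisons share libraries.

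Hmox1, Slc7a11 and Srxn1 in members had lower CPM at 1 ppm than in filtered air, with Hmox1 at 4183 CPM against 6213 CPM. The ranking chose members by these 3 genes, with 1 lower limit for all libraries and no upper limit, so the values are a description. Prdx1 and Gclm in members had ratios of 0.438 and 0.452 for 1 ppm over air, against 1.08 and 0.895 in the other macrophages. The ranking did not use these 2 genes, but Gclm fell with rank within members, from 1133 CPM in the top 0.5% to 509.8 CPM at 1 to 2%. The median member had 4596 CPM of the ranking genes at 1 ppm and 6868 CPM in air. These ratios thus cannot be told apart from a difference in rank. Mt1 had a ratio of 0.394 for 1.5 ppm over air in members and 0.443 in the others, below 1 in both. Car4, carbonic anhydrase 4, had 39.8, 738 and 83.3 CPM in members against 187, 409 and 418 CPM in the other macrophages in the filtered air, 1 ppm and 1.5 ppm libraries. Its 1 ppm level in members was 18.5 times that in air (interval 14.7 to 23.6), from 20 of 26 members. G2 and M phase genes had medians of -0.02, -2.17 and -0.34 log2 and S phase genes 0.55, -0.25 and -0.04. At 1 ppm 18 of the 20 G2 and M phase genes were 2-fold lower in members, which rests on 26 cells. After thinning, 24 of 113, 1 of 26 and 25 of 78 members had 3 or more G2 and M phase UMIs, which is 21.2% (14.1 to 29.9), 3.85% (0.0973 to 19.6) and 32.1% (21.9 to 43.6). The other macrophages had 9.92%, 9.37% and 23.1%, so in filtered air and at 1.5 ppm the share and the summed levels did not point the same way and no order is read from them. For S phase, 37 of 113, 9 of 26 and 30 of 78 members had 3 or more UMIs after thinning, which is 32.7% (24.2 to 42.2), 34.6% (17.2 to 55.7) and 38.5% (27.7 to 50.2), against 27.4%, 24.1% and 41.7% of the others. At 1 ppm the S phase share was higher in members while the list's median and summed level were lower, so no order is read there either.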

How the data were processed

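Droplet 3′ RNA-seq of lavage immune cells gave 1 library for each of 3 groups. The deposited values are UMI counts per gene and barcode, made by the authors; per the file headers the tool was Cell Ranger 8.0.0, and the submitters' processing notes name the build GRCm39. The treatment of intronic reads is not given in the sources consulted. Libraries held 59359742, 42825676 and 95403078 UMIs in 5307, 3233 and 7269 barcodes of filtered air, 1 ppm and 1.5 ppm.

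Barcodes were filtered and ranked as the report states, with numpy 2.4.6, scipy 1.17.1, pandas 2.3.3 and scanpy 1.11.5. Counts were summed over members and over the other macrophages of each library. The log2 ratio of CPM used 1 UMI added to each sum and genes with a mean of at least 10 CPM, and 2-fold was the size named. With 1 library a group no test was made. The code was tested on simulated data. The members, the 28 gene lists and the 12 marker lists were chosen with earlier results of these data known.

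Named genes were the 20 highest and 12 lowest by their smallest absolute log2 ratio over libraries, up to 4 of each list by absolute mean log2 ratio, the 5 highest and 5 lowest between each pair of libraries, and the 5 label genes. Mitochondrial, ribosomal protein, haemoglobin, immunoglobulin, T cell receptor, predicted, Xist, Tsix and Y-linked genes were left out of that ranking. Genes named outside the rule, including Nfe2l2, Keap1, Bach1, Slc3a2, Txnip, Ftl1, Fth1, Bag3, Tnf, Nfkbia, Marco, Siglecf, Pparg, Bhlhe41 and Lepr, were chosen after their values were seen. Alternatives changed the size of the top group, the ranking, the filters on barcodes and genes, the thinning and the value added.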

Additional observations from a re-analysis of the deposited data

Results flagged for a closer look

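A few genes were higher in members of one library and lower in members of another, each relative to the other macrophages of its own library. Every group is 1 pooled library, so the difference between libraries was not tested. Car4, carbonic anhydrase 4, had log2 ratios of -2.22 in filtered air, 0.86 at 1 ppm and -2.31 at 1.5 ppm. Pclaf, a replication factor, had 0.91 in filtered air and -3.84 at 1 ppm. Rrm2, a subunit of ribonucleotide reductase, had 0.88 in filtered air, -2.47 at 1 ppm and -0.66 at 1.5 ppm. Ifi27l2a, an interferon-stimulated gene, had 0.68 in filtered air and -1.28 at 1.5 ppm. Slc39a2, a zinc importer, had 0.70 at 1 ppm and -1.51 at 1.5 ppm. The 1 ppm values rest on 26 members.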

How the results depend on the processing

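The members' share of macrophages in filtered air, at 1 ppm and at 1.5 ppm was 1.95%, 0.378% and 0.662% with the top 1%, 6.69%, 3.40% and 4.60% with the top 5%, and 2.01%, 1.98% and 2.00% with the top 2% of each library, which fixes it. Without Hmox1 in the ranking it was 2.80% in filtered air and 1.84% at 1.5 ppm. Genes 2-fold higher in every library numbered 97 with the top 5%, 66 with a mean of at least 50 CPM, 9794 with no CPM minimum and 239 without the 1 ppm library. Genes 2-fold lower numbered 234 with the top 1%, 63 with the top 5%, 65 with 5 UMIs added, 56 with at least 50 CPM and 277 without the 1 ppm library. Leaving out the 1 ppm library, each gene's highest member barcode or the Hsp70-rich members, and adding 1 CPM in place of 1 UMI, were chosen after seeing the data. Genes 2-fold different between members of 1 ppm and filtered air numbered 1716 with the top 1%, 245 with the top 5%, 1656 after thinning, 157 with at least 50 CPM and 12133 with no minimum. Between 1.5 ppm and filtered air they numbered 621 with the top 1%, 426 without Hmox1 in the ranking, 764 after thinning, 522 without barcodes of 3 or more G2 and M phase UMIs, 622 with the top 2% of each library, 28 with at least 50 CPM and 2600 with no minimum. Between 1.5 ppm and 1 ppm they numbered 1829 with the top 1%, 280 with the top 5%, 1839 after thinning, 468 with the top 2% of each library, 209 with at least 50 CPM and 12721 with no minimum. The cause was not tested, except that counts with no minimum include genes whose sums are mostly the added UMI.

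Of 3717 alternative values for single genes and lists, 15 reversed the sign of a reported value of at least 1 log2 in size, and 704 moved. Sign changes of smaller reported values were not counted as reversed. Without each gene's highest member barcode Egr1 had a mean log2 ratio of -0.20 and Mrnip -0.52. Mrnip had -0.19 with at most 5% mitochondrial UMIs and -0.92 without members of 10 or more Hspa1a and Hspa1b UMIs, where Tmem267 had -0.44. Without barcodes of 3 or more G2 and M phase UMIs, Pclaf had 0.048, Cenpf 2.28, Prc1 1.83, Ube2c 1.22, H1f5 0.50 and H2ac24 0.68, an alternative that removes cycling barcodes by construction. Pclaf had 0.53 with the top 5% and 0.29 with the top 2% of each library, and Cenpf had 0.089 after thinning. The cytokine list's median was -0.28 with at least 50 CPM. No paired analysis was possible because each group has 1 library. Depth limits the 1 ppm members most, where 26 cells hold 583840 UMIs.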

Other observations

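Gene lists without a 2-fold member in every library are given as values. MHC class II genes, which present antigen, had medians of -0.20, -0.45 and -0.65 log2 over 7 genes in the filtered air, 1 ppm and 1.5 ppm libraries. Interferon-stimulated genes had 0.44, -0.35 and 0.09 over 4 genes, glycolysis and hypoxia 0.45, 0.54 and 0.27 over 18, and endoplasmic reticulum stress 0.10, 0.43 and -0.33 over 16. Nuclear genes of oxidative phosphorylation had 0.11, 0.23 and -0.12 over 22 genes and genes of the mitochondrial genome -0.20, 0.05 and 0.07 over 13. Matrix and repair genes had -0.40, 0.11 and -0.56 over 9. Among macrophage barcodes left out for a mitochondrial share over 10%, 25 of 747, 4 of 386 and 0 of 62 had at least the ranking share of the lowest member in filtered air, at 1 ppm and at 1.5 ppm. Among barcodes below the UMI minimum 4 of 94, 0 of 62 and 17 of 534 did, which is 4.26%, 0% and 3.18%, and among those with few macrophage genes 0 of 42, 0 of 24 and 3 of 127 did.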
